A study of Homo sapiens with 8 samples.

Results

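Dense groups of POLR3A ChIP-seq regions lay beside the centromeres of chromosomes 2, 4, 10 and 16, and these groups are described here across 4 libraries. The members are all listed regions whose midpoint fell at 92 to 93 Mb of chromosome 2, 49 to 50 Mb of chromosome 4, 42 to 43 Mb of chromosome 10 or 46 to 47 Mb of chromosome 16, in hg19 positions. They number 332 of the 1222 regions listed over the 4 libraries. The windows were chosen by the number of listed regions in them, so the counts and densities given below describe that choice and support nothing by themselves.

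POLR3A is the largest subunit of RNA polymerase III. The ChIP used MDA-MB-231, a human breast cancer cell line, and MDA-LM2, a highly metastatic line derived from it. For each there were 2 replicate ChIP libraries, and the authors deposited 1 list of enriched regions per library. Both lines were grown in the same medium with serum and fixed with formaldehyde, and the labels name no other treatment or genotype. Whether the replicates are separate cultures is not in the labels, and their spread may be technical.

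RNA polymerase III transcribes short genes such as those of tRNA, 5S rRNA and U6 snRNA, most of which lie on chromosome arms. Pericentromeric DNA is heterochromatin built largely of satellite repeats, among them alpha satellite and the classical human satellites. Genome assemblies hold only part of these arrays, and reads of many similar copies can be placed on the few copies that an assembly holds. By name in the RefSeq table of GRCh38.p14, chromosomes 2, 4, 10 and 16 carry 8, 1, 3 and 26 tRNA genes in all. No hg19 annotation or sequence was used here, and neither genes nor repeat classes were assigned.

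Each line gave a long and a short list. The long lists are those of MDA-MB-231 replicate 1 with 646 regions and of MDA-LM2 replicate 2 with 472. The short lists are those of MDA-MB-231 replicate 2 with 18 and of MDA-LM2 replicate 1 with 86. The read depth of the libraries is unknown. The lists carry no column names, and the column read from its values as the pile-up of reads at the tallest point of a region, in whole numbers, is called height here. It is the authors' value, and nothing in the values shows a depth correction. The strength score is a positive value that the authors deposited without a definition in the sources used here. Heights and scores therefore describe or rank regions within 1 list only.

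The 4 windows held 181 regions of the long MDA-MB-231 list, 2 of the short MDA-MB-231 list, 2 of the short MDA-LM2 list and 147 of the long MDA-LM2 list. Nearly all members thus came from 1 library of each line, and the other library of each line was nearly empty there. As a share of its own list this was 28.02% in the long MDA-MB-231 list (exact 95% Clopper-Pearson interval 24.6 to 31.7%) and 31.1% in the long MDA-LM2 list (26.99 to 35.5%). It was 11.1% in the short MDA-MB-231 list (1.38 to 34.7%) and 2.33% in the short MDA-LM2 list (0.283 to 8.15%). Intervals here and below cover counting error only, take regions as independent, which neighbours in 1 library are not, and are not used to set libraries or windows apart.

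No difference in members between the lines exceeded the replicate spread. There were, in MDA-MB-231, 91.5 ± 127 regions in the windows (SD, n = 2) and in MDA-LM2 74.5 ± 103 (SD, n = 2), with an exact two-sided permutation p of 1, where 2 libraries against 2 allow no p below 0.3333. Taking MDA-LM2 less MDA-MB-231, the difference was -17 and turned to 72.5 without the long MDA-MB-231 list and to 55.5 without the short MDA-LM2 list. Without the short MDA-MB-231 list it was -106.5, and without the long MDA-LM2 list it was -89.5. The mean shares of the lists were 19.6% ± 11.96 and 16.7% ± 20.4 (SD, n = 2 each, exact permutation p = 1).

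The windows divided differently between the long lists. Chromosome 4 held 103 regions of the long MDA-MB-231 list and 30 of the long MDA-LM2 list, and no region of the other libraries. Chromosome 16 had the opposite order, with 16 in the long MDA-MB-231 list and 36 in the long MDA-LM2 list, and again none in the other libraries. Chromosome 2 held 30 regions of the long MDA-MB-231 list, 0 of the short MDA-MB-231 list, 1 of the short MDA-LM2 list and 34 of the long MDA-LM2 list. On chromosome 10 the counts were 32, 2, 1 and 47 in the same order. In each window the high and the low library of 1 line enclosed or overlapped those of the other line, and the exact permutation p over libraries was 0.667 for chromosome 2 and 1 for chromosomes 4, 10 and 16 (adjusted p = 1 over the 4 windows). A count of 0 in the short MDA-MB-231 list allows a share of up to 18.5% of it, and a count of 0 in the short MDA-LM2 list a share of up to 4.20% (exact intervals).

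**Figure D1:**
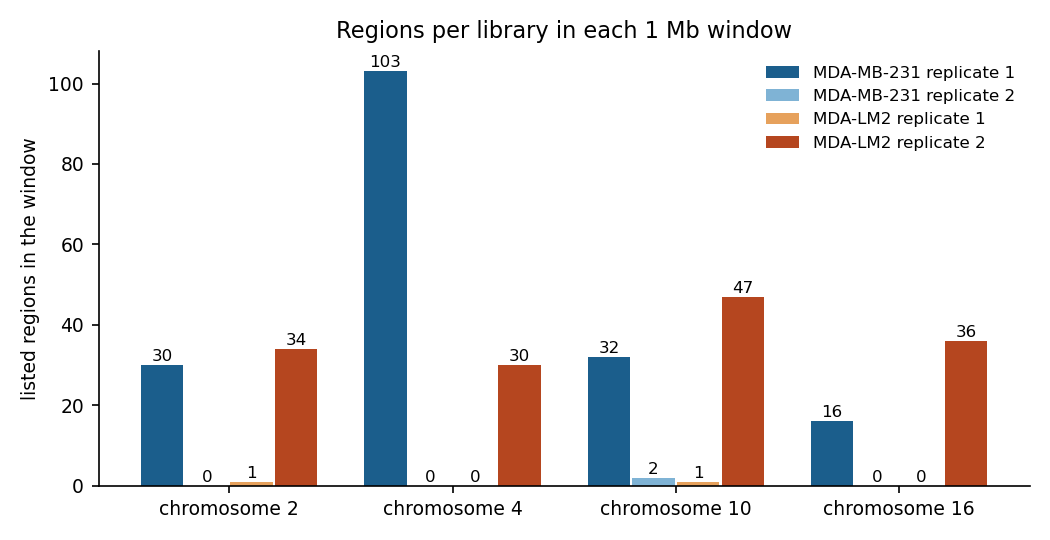
Number of listed regions (vertical axis) in each 1 Mb window, with 1 bar per ChIP library and its count above the bar. The long lists, MDA-MB-231 replicate 1 with MDA-LM2 replicate 2, hold nearly all regions, with 103 against 30 on chromosome 4 and 16 against 36 on chromosome 16.

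These windows held most of what was listed on their chromosomes. On chromosome 4, 133 of the 136 regions over the 4 lists were in the window. The shares were 82 of 90 on chromosome 10, 65 of 97 on chromosome 2 and 52 of 74 on chromosome 16. On the whole of chromosome 4, the long MDA-MB-231 list held 104 regions, of which 1 lay outside the window. The bounds of the windows cut through no group: the nearest listed regions outside were at least 2.12 Mb from an edge, and those inside at least 0.0939 Mb. The region just outside, on chromosome 2 at 89879759 to 89880030, had a height of 47 in the long MDA-MB-231 list, and the one just inside, on chromosome 4 at 49093834 to 49094016, had 18 in the long MDA-LM2 list.

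Within the windows the regions were packed into short blocks. A block was taken as a run of members in which neighbouring midpoints were at most 50 kb apart, a distance chosen after the positions were seen. Chromosome 2 had 1 block of 56.8 kb at 92269362 to 92326176, and chromosome 16 had 1 of 62.97 kb at 46386877 to 46449848. Chromosome 4 had 4 blocks, the main ones being of 64.8 kb at 49093834 to 49158641 and of 25.2 kb at 49634581 to 49659786. Between these lay a run of 6 regions at 49285036 to 49328246 and a single region at 49513072 to 49513277, all in the long MDA-LM2 list and in no other. Chromosome 10 had 3 blocks, of 53.9 kb at 42355464 to 42409382, 18.5 kb at 42527880 to 42546385 and 3.67 kb at 42596728 to 42600400. Between the last of these and the one before it, midpoints of the long MDA-LM2 list were 51423 bp apart. A slightly longer limit would thus join them and change the density and coverage of this window. The blocks took up 5.68, 13.3, 7.61 and 6.30% of the windows of chromosomes 2, 4, 10 and 16.

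Density in the blocks, over all 4 lists, was 11.4, 9.97, 10.8 and 8.26 regions per 10 kb on chromosomes 2, 4, 10 and 16. In the long MDA-MB-231 list alone, the densities were 5.28, 7.72, 4.21 and 2.54 per 10 kb in that order. Those of the long MDA-LM2 list were 5.98, 2.25, 6.18 and 5.72. The density of the long MDA-MB-231 list was thus greatest on chromosome 4, where that of the long MDA-LM2 list was least. In the first chromosome 4 block, the long MDA-MB-231 list held 76 regions (11.7 per 10 kb) that covered 35.7% of the block, against 15 regions and 4.04% in the long MDA-LM2 list. In the last chromosome 4 block it held 27 regions over 36.4% of the block, against 8 and 5.95%.

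The fullest 10 kb bin of each window, counted over the 4 lists, shows how the long lists divide. On chromosome 4 the bin at 49.10 to 49.11 Mb held 17 regions of the long MDA-MB-231 list and 4 of the long MDA-LM2 list. On chromosome 2 the bin at 92.31 to 92.32 Mb held 12 regions of the long MDA-MB-231 list, 1 of the short MDA-LM2 list and 11 of the long MDA-LM2 list. On chromosome 10 the bin at 42.53 to 42.54 Mb held 3 of the long MDA-MB-231 list and 12 of the long MDA-LM2 list. Chromosome 16 had 2 equal bins of 14 regions, at 46.39 to 46.40 Mb with 6 and 8, and at 46.40 to 46.41 Mb with 4 and 10, in these libraries.

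**Figure D2:**
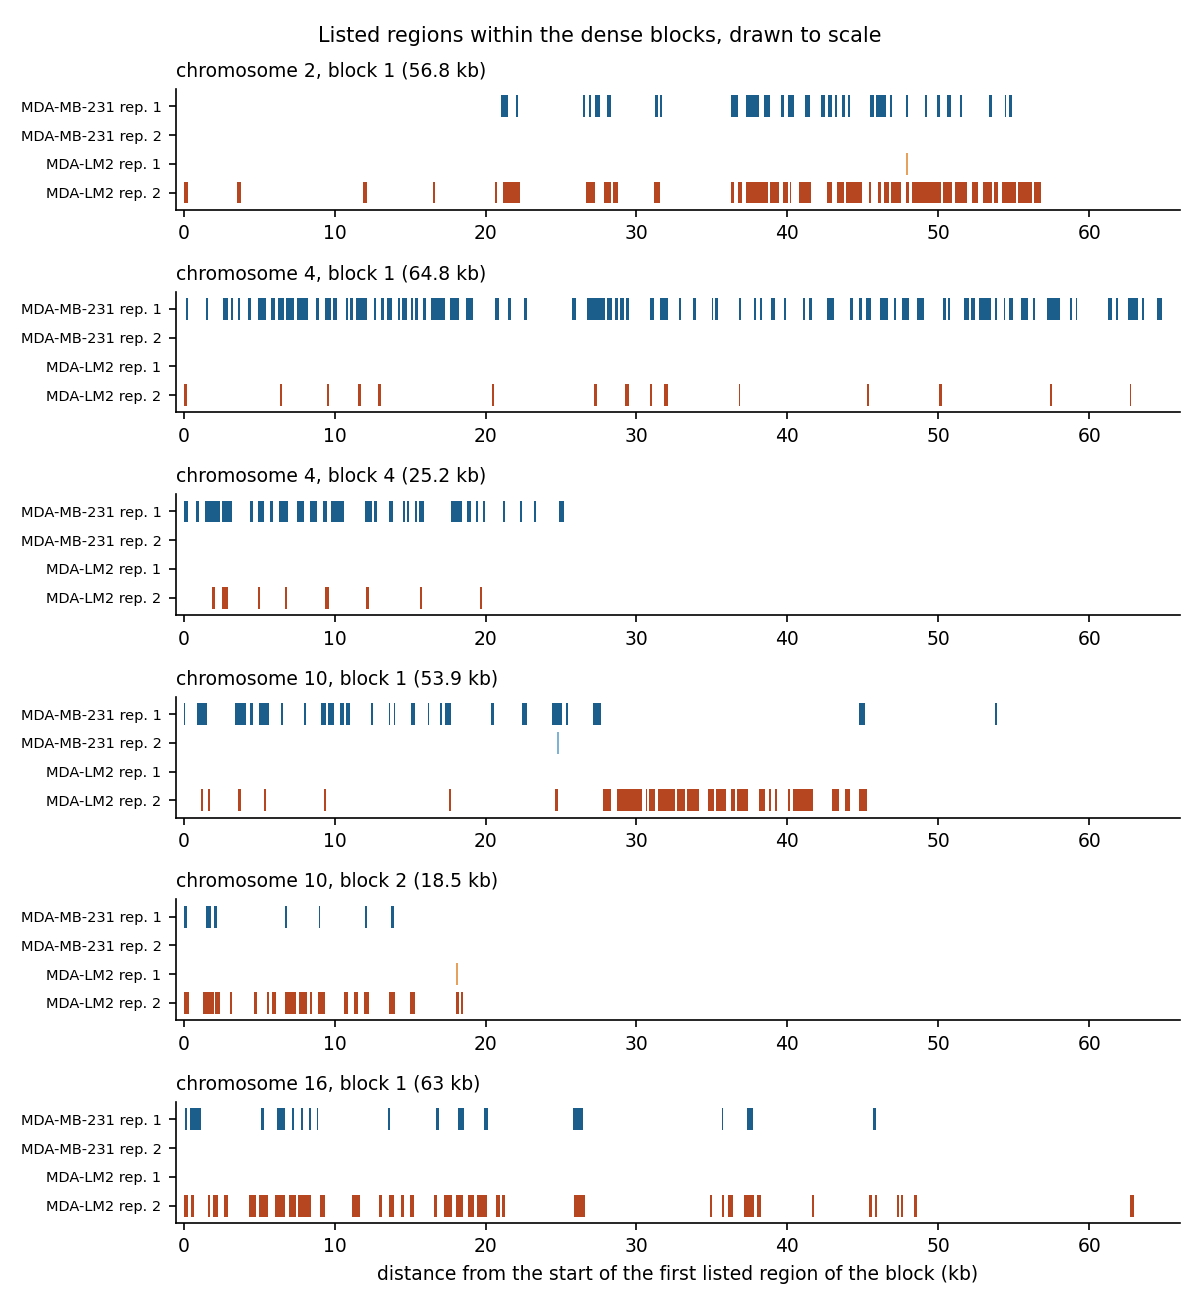
Listed regions, drawn to scale, in the 6 blocks with more than 6 regions, with distance from the start of the first listed region of the block in kb (horizontal axis) and 1 row per library. On chromosome 4 MDA-MB-231 replicate 1 fills both blocks, and in the first chromosome 10 block the long lists occupy different stretches.

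In the first chromosome 10 block the long lists split into neighbouring stretches, which were chosen after their counts were seen. Between 42.36 and 42.38 Mb, the long MDA-MB-231 list held 16 regions and the long MDA-LM2 list held 3. Between 42.38 and 42.40 Mb, the long MDA-MB-231 list held 3 regions and the long MDA-LM2 list held 19. Heights in the long MDA-MB-231 list ran from 14 to 54 with a median of 24 over the 16 regions of the first stretch. In the long MDA-LM2 list they ran from 18 to 139 with a median of 65 over the 19 regions of the second stretch. Of these 19, 1 overlapped a region of the long MDA-MB-231 list, as did all 3 of the first stretch. In the long MDA-MB-231 list, 3 of the 16 regions of the first stretch and 1 of the 3 of the second were found in turn. The whole-list shares are 66.5% for the long MDA-LM2 list and 46.7% for the long MDA-MB-231 list. Stretches where 1 list had few regions were picked, so low sharing follows in part from that choice and supports nothing by itself. Within these 40 kb the order of the long lists turned over, which describes the stretches that were picked and was not tested.

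Spacing was taken between the midpoints of neighbouring regions of 1 list. In the long MDA-MB-231 list the median step was 819 bp on chromosome 2 (29 steps, 291 to 4892 bp) and 806 bp on chromosome 4 (102 steps, 254 bp to 476 kb). It was 1247 bp on chromosome 10 (31 steps, 346 bp to 119 kb) and 1639 bp on chromosome 16 (15 steps, 513 to 9555 bp). In the long MDA-LM2 list the medians were 975 bp on chromosome 2 (33 steps), 4826 bp on chromosome 4 (29 steps), 952.5 bp on chromosome 10 (46 steps) and 826 bp on chromosome 16 (35 steps). The steps were uneven within each window. The middle 50% of steps ran from 526.5 to 1068 bp on chromosome 4 in the long MDA-MB-231 list, and from 695.5 to 1498.5 bp on chromosome 16 in the long MDA-LM2 list. No regions of 1 list overlapped, and the smallest gap between the edges of neighbours was 101 bp in both long lists.

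The share of steps under 1000 bp was 62.1, 68.6, 32.3 and 33.3% on chromosomes 2, 4, 10 and 16 in the long MDA-MB-231 list. The long MDA-LM2 list had 51.5, 10.3, 52.2 and 57.1%. The 2 members of the short MDA-MB-231 list, both on chromosome 10, stood 217 kb apart, and those of the short MDA-LM2 list were on different chromosomes, so neither short list gives a spacing within a block.

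Widths differed between windows and lists. In the long MDA-MB-231 list the median width was 194 bp on chromosome 2 (103 to 882 bp), 229 bp on chromosome 4 (99 to 1141), 167 bp on chromosome 10 (99 to 683) and 162.5 bp on chromosome 16 (99 to 739). Outside the windows the median of that list was 304 bp over 465 regions, so its members were narrower than its other regions in all 4 windows, with no test of the difference. In the long MDA-LM2 list the medians were 436.5 bp on chromosome 2 (102 to 1918), 160 bp on chromosome 4 (104 to 371), 314 bp on chromosome 10 (100 to 2029) and 275 bp on chromosome 16 (118 to 907). Outside, its median was 207 bp over 325 regions, so its members were wider on chromosomes 2, 10 and 16 and narrower on chromosome 4. In all, the members covered 53.3 kb in the long MDA-MB-231 list and 56.2 kb in the long MDA-LM2 list.

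The widest member of each window was found in a different library on chromosome 4 than elsewhere. It was 1918 bp wide on chromosome 2 at 92317638 to 92319556, 2029 bp on chromosome 10 at 42596728 to 42598757 and 907 bp on chromosome 16 at 46394434 to 46395341, all in the long MDA-LM2 list. On chromosome 4 it was 1141 bp wide at 49120575 to 49121716, in the long MDA-MB-231 list. These had heights of 36, 171, 25 and 44.

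Within the long MDA-LM2 list, chromosome 10 had the greatest median and the greatest highest height of the 4 windows. The lowest, median and highest heights in that list were 14, 40 and 171 on chromosome 10 and 11, 32 and 56 on chromosome 2. The 3 blocks of chromosome 10 differed, with median heights of 59, 29.5 and 134 over 26, 18 and 3 regions, so the second was below chromosome 2. Over whole windows the other values follow. They were 13, 18 and 44 on chromosome 4, and 11, 17.5 and 31 on chromosome 16, against a median of 19 over its regions outside the windows. On chromosome 10, 39 of 47 members were above the list's own median height of 20, on chromosome 2 31 of 34, on chromosome 4 9 of 30 and on chromosome 16 10 of 36. Chromosome 10 also gave 5 of the 10 highest strength scores of the long MDA-LM2 list and 20 of its 48 strongest regions, to which chromosome 2 added 1 and chromosomes 4 and 16 none.

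In the long MDA-MB-231 list the windows were more alike. The lowest, median and highest heights were 19, 34.5 and 62 on chromosome 2, 14, 30 and 73 on chromosome 4, 14, 34.5 and 104 on chromosome 10 and 16, 26 and 38 on chromosome 16. Outside the windows the median was 26. The windows held none of the 10 strongest regions of this list and 9 of its 65 strongest, of which 5 were on chromosome 10, 3 on chromosome 4 and 1 on chromosome 2. The 181 members made up 28.02% of the list but 13.8% of its 65 strongest regions, whereas in the long MDA-LM2 list the members made up 31.1% of the list and 43.75% of its 48 strongest.

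**Figure D3:**
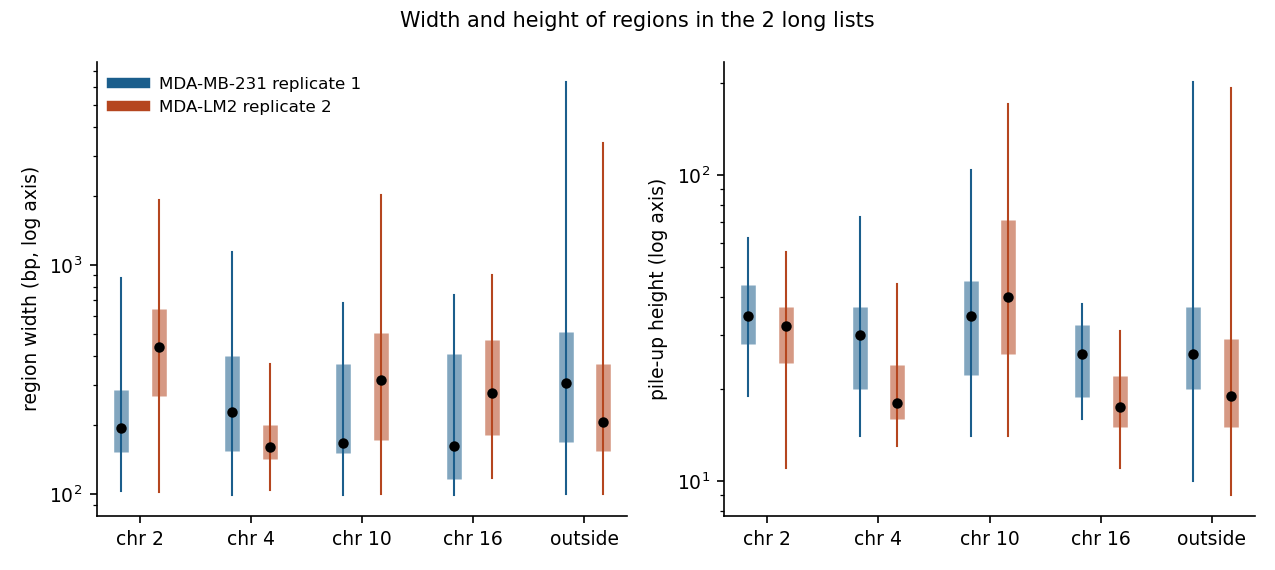
Region width in bp (left, log axis) and pile-up height (right, log axis) in each window and outside all 4 windows, for the 2 long lists. Dots are medians, thick bars the middle 50% of regions and thin lines the lowest to the highest. Heights have no known correction for depth, so colours are not to be compared on the right, where chromosome 10 reaches 171 in MDA-LM2 replicate 2.

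Other centromere windows of the same size, on chromosomes 1, 6, 7, 17 and 19, held fewer regions when pooled. These 5 windows had 56 regions of the long MDA-MB-231 list, 2 of the short MDA-MB-231 list, 11 of the short MDA-LM2 list and 57 of the long MDA-LM2 list. Their pooled median height was 44.5 in the long MDA-MB-231 list, against 31 for its members in the 4 windows, and 29 in the long MDA-LM2 list, against 24. The short MDA-LM2 list, with 2 members in the 4 windows, had 8 regions in the chromosome 17 window alone. Single windows departed from the pooled values: the chromosome 1 window held 23 regions of the long MDA-MB-231 list, more than the 16 on chromosome 16. In the long MDA-LM2 list the chromosome 1 and 17 windows had median heights of 18 and 27, below the 32 of chromosome 2 and the 40 of chromosome 10. The chromosome 6 and 19 windows were above both, at 66 over 3 regions and 53 over 7. The chromosome 7 window had 32 over 10 regions, so high pile-ups were not particular to chromosome 10. Median steps were also short in some of them, at 664.5 bp on chromosome 19 in the long MDA-MB-231 list and 791 bp on chromosome 17 in the long MDA-LM2 list, below those of all 4 windows in the same list. These windows were also named with their values known, and the differences were not tested.

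The strongest region of a window, by strength score, mostly lay at different places in the long lists. On chromosome 2 it was at 92312533 to 92312678 in the long MDA-MB-231 list, with a score of 26.88 and a height of 47. In the long MDA-LM2 list it was at 92315373 to 92315545, with 27.01 and 56. The latter overlapped a region of the long MDA-MB-231 list at 92315259 to 92315877, with a score of 26.85 and a height of 62. Their highest positions were 6 bp apart, so the different places on chromosome 2 rest on a near-tie of scores in the long MDA-MB-231 list. On chromosome 4 the strongest regions of the long lists overlapped, at 49151054 to 49151896 in the long MDA-MB-231 list (score 31.96, height 73) and at 49151204 to 49151358 in the long MDA-LM2 list (score 21.3, height 44). On chromosome 16 it was at 46405068 to 46405470 in the long MDA-MB-231 list (24.2, height 38) and at 46392916 to 46393586 in the long MDA-LM2 list (18.7, height 31). Only on chromosome 4 did the strongest regions of the long lists overlap, with highest positions 586 bp apart, at 49151794 and 49151208.

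On chromosome 10 each of the 4 libraries had its strongest region at a different place. In the long MDA-MB-231 list it was at 42529331 to 42529694, with a score of 58.1 and a height of 104, and ranked 13 of the 646 regions. In the short MDA-LM2 list it was at 42545929 to 42546083, with a score of 13.1 and a height of 17. In the long MDA-LM2 list it was at 42599516 to 42600400, with a score of 66.6 and a height of 134, and ranked 3 of 472.

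In the short MDA-MB-231 list the strongest was at 42597013 to 42597222, with a score of 127 and a height of 190, and it ranked first in the whole list of 18. This region was not found in the other replicate of the same line: the nearest region of the long MDA-MB-231 list was 55.2 kb away. The long MDA-LM2 list did hold it, within its region at 42596728 to 42598757 of height 171, and the highest positions of the 2 lists were 42597056 and 42597044. Over the whole short MDA-MB-231 list, 88.9% of regions were found in the long MDA-MB-231 list, and 88.9% in the long MDA-LM2 list.

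An overlap of 1 bp or more made regions of different lists count as shared. Of the 181 members of the long MDA-MB-231 list, 76 were found in the long MDA-LM2 list (42.0%, exact 95% interval 34.7 to 49.5%), against 46.7% of its whole list. Of the 147 members of the long MDA-LM2 list, 70 were found in the long MDA-MB-231 list (47.6%, 39.3 to 56.0%), against 66.5% of its whole list. Outside the windows the shares were 226 of 465 (48.6%, 43.97 to 53.2%) and 244 of 325 (75.1%, 70.0 to 79.7%). By the 1 bp rule the share of the long MDA-MB-231 list in the windows was thus near that of its whole list. That of the long MDA-LM2 list was below that of its whole list. In the 5 other centromere windows the shares were higher, at 43 of 56 (76.8%) and 51 of 57 (89.5%). No test was made over regions, since those of 1 library are not independent.

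The shares by window ranged more widely than the pooled one. Of the regions of the long MDA-MB-231 list, 28 of 30 on chromosome 2 (93.3%, exact 95% interval 77.9 to 99.2%) and 15 of 16 on chromosome 16 (93.75%, 69.8 to 99.8%) were found in the long MDA-LM2 list. On chromosome 10 this was 14 of 32 (43.75%, 26.4 to 62.3%) and on chromosome 4 19 of 103 (18.4%, 11.5 to 27.3%). In the other direction, 23 of 34 regions of the long MDA-LM2 list on chromosome 2 (67.6%, 49.5 to 82.6%) and 19 of 30 on chromosome 4 (63.3%, 43.9 to 80.1%) were found in the long MDA-MB-231 list. On chromosomes 10 and 16 these shares were 14 of 47 (29.8%, 17.3 to 44.9%) and 14 of 36 (38.9%, 23.1 to 56.5%).

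How much of a block the other list covers bears on these shares. The long MDA-LM2 list covered 32.1, 3.94, 26.97 and 19.3% of the blocks of chromosomes 2, 4, 10 and 16. The long MDA-MB-231 list covered 13.8, 24.2, 11.7 and 6.74%. Each share of regions found was higher than the share of the blocks covered. The 2 shares were nearest in ratio on chromosome 10 for the long MDA-MB-231 list, at 43.75% found and 26.97% covered. Regions have a width of their own and the blocks were drawn from these lists, so how many would meet by placement alone was not tested.

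**Figure D4:**
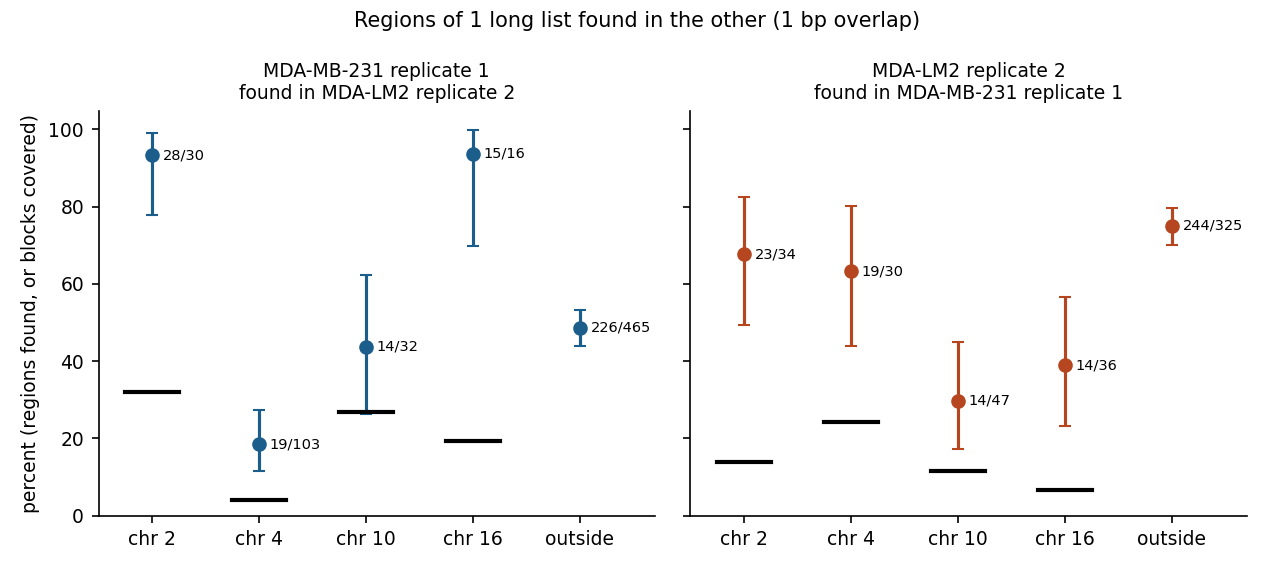
Percent of the regions of 1 long list found in the other by at least 1 bp (dots, with exact 95% intervals and counts) in each window and outside all 4 windows. Horizontal bars give the percent of the window's blocks that the other list covers. On the left, chromosomes 2 and 16 stand at 93.3 and 93.75% and chromosome 4 at 18.4%.

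Sharing by block is given beside the whole-list shares of 46.7% for the long MDA-MB-231 list and 66.5% for the long MDA-LM2 list. On chromosome 10, all 7 regions of the long MDA-MB-231 list in the second block were found in the long MDA-LM2 list (exact 95% interval 59.04 to 100%), but 7 of 25 in the first block (28%, 12.1 to 49.4%). The long MDA-LM2 list covered 30.4% of the second block and 21.8% of the first, the latter near the share found there. In the first chromosome 4 block, 12 of the 15 regions of the long MDA-LM2 list were found in the long MDA-MB-231 list, and in the last block 7 of 8. In the run of 6 regions between them and in the single region, none was found. All 19 shared regions of this list on chromosome 4 thus lay in the main blocks.

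Regions that were found in the other long list were higher in their own list in all windows but chromosome 10 of the long MDA-LM2 list. In the long MDA-MB-231 list the median heights of found and not found regions were 35 and 28 on chromosome 4, 44 and 23.5 on chromosome 10, 36.5 and 24 on chromosome 2 and 27 and 18 on chromosome 16, the last pairs with only 2 and 1 not found. In the long MDA-LM2 list they were 33 and 29 on chromosome 2, 20 and 15 on chromosome 4 and 19 and 16 on chromosome 16. On chromosome 10 the order turned, with 33 for the 14 found and 45 for the 33 not found. Found regions were also wider except on chromosome 2 of the long MDA-MB-231 list and chromosome 10 of the long MDA-LM2 list. In those cases median widths were 194 against 218.5 bp and 294.5 against 314 bp. On chromosomes 4 and 10 of the long MDA-MB-231 list they were 407 against 201 bp and 363 against 154 bp. A wide region meets another by 1 bp more easily, and height was not tested apart from width. The 84 chromosome 4 regions of the long MDA-MB-231 list that were not found lay a median of 1158 bp from the nearest region of the long MDA-LM2 list, and 5068 bp at most.

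Among the 79 overlapping pairs of regions of the long lists in the windows, the highest positions were a median of 58 bp apart, and 39 pairs (49.4%) were within 50 bp. By window the median distance was 69 bp on chromosome 2 (31 pairs), 34 bp on chromosome 4 (19 pairs), 13.5 bp on chromosome 10 (14 pairs) and 95 bp on chromosome 16 (15 pairs). Outside the windows it was 83 bp over 261 pairs, of which 105 (40.2%) were within 50 bp. On chromosome 10, 10 of 14 pairs had highest positions within 50 bp, and on chromosome 16 3 of 15. Heights of paired regions rose together across the 79 pairs (Pearson's r 0.81, Spearman's rho 0.68), as they did outside (0.76 and 0.64 over 261 pairs). These are descriptions across regions of the same 2 libraries, and regions of 1 library share its depth, so they carry no p.

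Width within these pairs also differed by window. On chromosome 2 the region of the long MDA-LM2 list was the wider of the pair in 24 of 31, on chromosome 16 in 13 of 15, on chromosome 10 in 8 of 14 and on chromosome 4 in 2 of 19. Outside the windows it was the wider in 62 of 261. On chromosome 2, 8 regions of the long MDA-LM2 list each overlapped more than 1 region of the long MDA-MB-231 list, so 28 regions met 23. Such regions enter the 31 pairs more than once. A wide region overlaps several neighbours more easily, so the count of 24 is not one of separate regions.

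**Figure D5:**
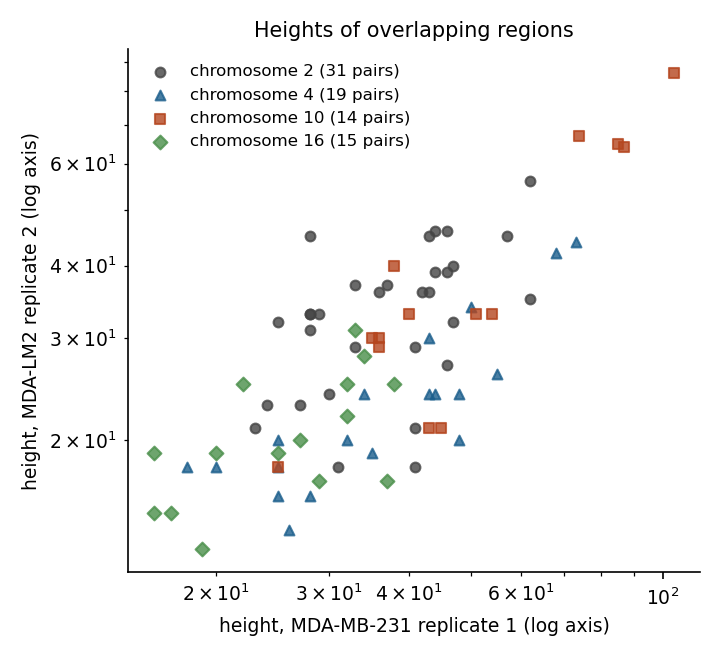
Pile-up height in MDA-LM2 replicate 2 (vertical, log axis) against that in MDA-MB-231 replicate 1 (horizontal, log axis) for the 79 overlapping pairs in the windows, by chromosome. Heights have no known correction for depth, so the axes are read each within its own list. Regions high in 1 list tended to be high in the other (Spearman's rho 0.68).

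Over all 4 lists the members merged into 249 places, of which 69 were held by more than 1 library (27.7%). Over the whole series this was 293 of 788 places (37.2%), and outside the windows 224 of 539 (41.6%), with no test of the difference. The long MDA-MB-231 list alone held 105 places and the long MDA-LM2 list alone 75, and these libraries together held 65. Only 4 places involved a short list, 2 of them held by 3 libraries and none by all 4. By window, 20 of 33 places were shared on chromosome 2, 19 of 114 on chromosome 4, 16 of 65 on chromosome 10 and 14 of 37 on chromosome 16. Without the long MDA-MB-231 list the shared places fell to 4, and without the long MDA-LM2 list to 2.

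The places held by 3 libraries lay in different windows. On chromosome 2, the place at 92317198 to 92317448 had heights of 33 in the long MDA-MB-231 list, 20 in the short MDA-LM2 list and 37 in the long MDA-LM2 list. The highest positions there were 92317344, 92317351 and 92317344. On chromosome 10, the place at 42379885 to 42380503 had heights of 87 in the long and 72 in the short MDA-MB-231 list and of 64 in the long MDA-LM2 list. Its highest positions were 42380270, 42380270 and 42380271. In both cases the libraries placed the top of the pile-up within 7 bp or less of one another.

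The other 2 places with a short list were the strong chromosome 10 region of the short MDA-MB-231 list described above and the only chromosome 10 region of the short MDA-LM2 list, at 42545929 to 42546083. The latter was found in the long MDA-LM2 list and lay 4.14 kb from the nearest region of the long MDA-MB-231 list. In all, 2 of the 2 members of the short MDA-LM2 list were found in the long MDA-LM2 list and 1 in the long MDA-MB-231 list, against 65.1 and 84.9% of its whole list of 86.

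Among the places held by both long lists and named by rank, heights were greatest on chromosome 10. At 42529178 to 42529877 heights were 104 in the long MDA-MB-231 list and 86 in the long MDA-LM2 list, at 42400197 to 42400717 they were 85 and 65, and at 42527880 to 42528206 they were 74 and 67. The highest positions of the first were 42529403 and 42529402, of the second 42400354 and 42400358, and of the last 42528031 and 42528032. Heights were lower on chromosome 4, where the place at 49151054 to 49151896 had 73 and 44, and the place at 49637084 to 49637745 had 68 and 42. The last 3 of that window, at 49139075 to 49139387, 49636006 to 49636960 and 49120575 to 49121716, had 43 and 30, 50 and 34, and 44 and 24.

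On chromosome 2 the named places are given with the height in the long MDA-MB-231 list first. At 92315259 to 92316071 heights were 62 and 56, at 92290410 to 92291663 they were 57 and 45, at 92306612 to 92308186 they were 46 and 39, and at 92319695 to 92320286 they were 43 and 36. On chromosome 16 the places at 46391868 to 46392480, 46404916 to 46405470 and 46392916 to 46393586 had 34 and 28, 38 and 25, and 33 and 31. Those at 46406331 to 46407034 and 46403447 to 46403780 had 32 and 22, and 37 and 17. At the last of these the highest positions were 46403753 and 46403471, so the lists overlapped there without a common top.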

How the data were processed

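POLR3A ChIP-seq regions of 4 libraries were analysed, 2 per line, and the 4 input libraries were not used here. Each ChIP library has 1 deposited list, with 11 columns and no header, so column meanings were read from the values. DESeq, bedtools, Bowtie2 2.2 and the hg19 build are named, without their roles, in the submitters' processing notes. No source used here gives the region caller or threshold. Of the columns, the signal the authors deposited is the pile-up height, the deposited strength score and a log p-like score (finite values below -10) are undefined, and a deposited percent column places the highest position. Whether positions count from 0 or 1 is not given. The lists' midpoints and widths matched their starts and ends in every row.

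Members were selected by midpoint, and lists were compared by overlap of at least 1 bp, by reciprocal overlap of 50% and by distance of up to 500 bp. Alternatives also kept the stronger 50% of each list, or as many of the strongest as the shortest list has (18), widened the windows by 1 Mb and left out 1 library at a time. Merging chains overlaps, so libraries holding 1 place need not all overlap directly. Lines were compared by exact two-sided permutation over libraries. Named regions are the highest score per library and window, up to 5 shared places per window, the widest region and the fullest 10 kb bin. Scripts ran in Python 3.11.15 with numpy 2.4.6, pandas 2.3.3 and scipy 1.17.1 and were tested on simulated lists. Windows, members and comparison sets were chosen with earlier results of these data known.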

Additional observations from a re-analysis of the deposited data

How the results depend on the processing

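The difference between the lines stayed at -17 regions with overlapping regions of a list merged. It also stayed with a 1 bp overlap with the window counted, or with the windows widened by 1 Mb on both sides. None of these settings could change a count. No regions of 1 list overlapped, none crossed an edge, and those outside lay at least 2.12 Mb away. With the strongest 18 regions of each list the difference turned to 4.5 regions and 25 percentage points of the list (as reported, -17 and -2.83), and was 0 on chromosomes 4 and 16. Leaving out 1 library moved it between -106.5 and 72.5 regions, between -17.2 and 11.6 percentage points, and by window between -14 and 19 on chromosome 2, -88 and 15 on chromosome 4, -16 and 30 on chromosome 10 and -8 and 28 on chromosome 16. With the replicate number as a block, the paired difference was -17 with an exact sign-flip p of 1, where 2 pairs allow no p below 0.5. The labels give only a shared number, and the block changed no call.

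Sharing moved with the overlap rule and with the libraries kept. Under reciprocal overlap of 50%, the share of MDA-MB-231 replicate 1 members found in MDA-LM2 replicate 2 was 9.39%. By window it was 10, 5.83, 12.5 and 25% on chromosomes 2, 4, 10 and 16. In the other direction the share was 11.6%, and by window 8.82, 20, 8.51 and 11.1%. Over the whole lists this rule gave 16.9 and 23.1%, so both shares of members lay below those of their lists, with no test. Within 500 bp the shares of members were 56.4% (100, 36.9 and 100% on chromosomes 2, 4 and 16) and 62.6% (63.9% on chromosome 16). Over the whole lists they were 59.3 and 74.8%. In the stronger 50% of each list the share of MDA-MB-231 replicate 1 members found was 49.0%. By window it was 95.7, 14.6, 68.4 and 75% on chromosomes 2, 4, 10 and 16. In the other direction the share was 48.9%, and by window 65.5, 100, 31.7 and 40%, with 7 regions on chromosome 4. Whole-list shares are not given for this setting. Shared places numbered 19 of 312 under reciprocal overlap, and 2 to 68 with 1 library left out.

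Gaps between edges had medians of 492 and 416 bp on chromosomes 2 and 4 in MDA-MB-231 replicate 1, and 288, 433.5 and 473 bp on chromosomes 2, 10 and 16 in MDA-LM2 replicate 2. In MDA-MB-231 replicate 1 the mean width was 277 bp on chromosome 10 and 265 bp on chromosome 16, and in the stronger 50% of the list median widths were 390.5, 293 and 327 bp on chromosomes 4, 10 and 16. In MDA-LM2 replicate 2 the stronger 50% had a median height of 30 on chromosome 4 and a median width of 489 bp on chromosome 16. A gap between edges leaves out the widths that a midpoint step includes, so it is the smaller by definition. The cause of the other shifts was not tested. Depth is unknown, so empty windows in the short lists cannot be told apart from too few reads.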
